A study of Mus musculus with 2 samples.

Results

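The gene Zfp57 and 5 further genes whose products guard genomic imprints, Trim28, Setdb1, Cbx5, Dppa3 and Ctcf, were followed in mouse embryonic stem (ES) cells that lived on either Baf53a or its neuronal homologue Baf53b. The 6 genes were taken by name out of 20819 genes that could be named on the array, and every probe that carries a RefSeq accession of one of them was used, 8 probes in all. Zfp57 was chosen by the difference of its own 2 probes, both lower in Baf53b-expressing cells, so its values describe that choice and are not tested here. Its 2 probes were A_55_P2172201, called the bright probe, and A_55_P2029533, called the dim probe.

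Both samples came from a single clone of E14-derived Baf53a cKO ES cells, in which CRISPR/Cas9 had mutated both alleles of Baf53a and a resistant Baf53a cDNA could be shut off with tetracycline (Tet). The cells were grown on gelatin in LIF medium and transfected with a pCAGIP-Myc vector for Baf53a in the Baf53a-expressing sample, or for Baf53b in the Baf53b-expressing sample. From 48 h after transfection, both were kept in 1 μg/mL Tet for 6 days. The comparison addresses whether Baf53b can stand in for Baf53a, and there was 1 array for each of the 2 conditions. With no replicate in either condition, differences are described by their size and no p-value is given.

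Imprinted genes are expressed from the maternal or the paternal copy alone, and the choice is written as DNA methylation at control regions set in the germ line. ZFP57 is a KRAB zinc finger protein that binds the methylated copy of these regions and holds TRIM28 there. TRIM28 in turn brings SETDB1, which methylates histone H3, HP1 proteins such as the product of Cbx5, and DNA methyltransferases, so that the mark survives the wave of demethylation in the early embryo. DPPA3 (also called Stella or PGC7) shields the maternal genome from demethylation in the zygote, and CTCF binds the unmethylated copy of some control regions, where it acts as an insulator. In ES cells Zfp57 lies downstream of STAT3 and Oct3/4 and serves as a marker of the undifferentiated state.

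The start sites of Zfp57 are shown first, since it is the gene on which the comparison turns. RefSeq promoter windows of build GRCm38.p6 reach from 250 bases before to 50 after a start site, and 5 of the 6 genes had one; Dppa3 had no entry. Zfp57 had 3 windows, at chr17:37000913-37001212, chr17:37002275-37002574 and chr17:37003416-37003715, all on the plus strand. They are set beside that of Trim28 at chr7:13023902-13024201, plus strand, the partner gene whose window held a ZFP57 hexamer. Capitals mark each CpG, the dinucleotide that carries DNA methylation.
Zfp57 start site 1: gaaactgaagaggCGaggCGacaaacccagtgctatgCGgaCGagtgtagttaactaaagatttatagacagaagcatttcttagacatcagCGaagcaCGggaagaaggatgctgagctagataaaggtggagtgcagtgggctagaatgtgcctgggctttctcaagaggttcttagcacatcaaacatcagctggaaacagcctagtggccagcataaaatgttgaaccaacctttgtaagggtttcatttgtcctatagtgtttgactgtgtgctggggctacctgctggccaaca
Zfp57 start site 2: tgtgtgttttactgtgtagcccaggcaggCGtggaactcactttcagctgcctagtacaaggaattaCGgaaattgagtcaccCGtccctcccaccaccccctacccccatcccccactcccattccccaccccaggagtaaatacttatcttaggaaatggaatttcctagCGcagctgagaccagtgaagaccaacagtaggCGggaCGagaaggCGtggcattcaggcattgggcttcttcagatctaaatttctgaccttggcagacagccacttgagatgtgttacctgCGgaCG
Zfp57 start site 3: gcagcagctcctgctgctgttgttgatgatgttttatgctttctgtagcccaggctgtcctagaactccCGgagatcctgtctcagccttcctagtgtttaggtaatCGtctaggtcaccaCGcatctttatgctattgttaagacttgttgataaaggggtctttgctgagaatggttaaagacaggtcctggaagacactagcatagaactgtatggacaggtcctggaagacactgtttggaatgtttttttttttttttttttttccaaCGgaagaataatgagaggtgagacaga
Trim28: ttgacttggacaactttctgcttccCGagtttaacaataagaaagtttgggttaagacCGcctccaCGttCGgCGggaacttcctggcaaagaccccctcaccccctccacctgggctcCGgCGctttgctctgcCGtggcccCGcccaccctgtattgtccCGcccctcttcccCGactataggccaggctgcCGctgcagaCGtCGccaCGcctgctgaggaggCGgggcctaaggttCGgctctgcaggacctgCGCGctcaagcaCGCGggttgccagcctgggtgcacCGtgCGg

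The 3 Zfp57 windows held 6, 9 and 4 CpGs, against a median of 7 over 32851 windows. Trim28 held 23, Setdb1 15 and Ctcf 47, and the 2 windows of Cbx5 held 8 and 29. The STAT site (TTCNNNGAA, its own reverse complement) was found in none of the 3 Zfp57 windows, while 8.30% of all windows held it. The octamer of POU factors such as Oct3/4 (ATGCAAAT, both strands) was also found in none of them, with 1.74% of all windows holding it. The hexamer bound by ZFP57 (TGCCGC, both strands), which does not overlap either of the other motifs in these windows, was found once among the 5 genes. It starts 59 bases before the start site of Trim28, and 11.6% of all windows held it. Which of the 3 start sites the probed Zfp57 transcripts used was not measured.

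All 8 probes were well above background on both arrays, so all 8 entered every count. The signal of each spot was the brightness after background subtraction. For a difference, the log2 signals were set to 0 at the 75th percentile of each array, a signal of 1161 for the Baf53a- and 1128 for the Baf53b-expressing sample. Differences are Baf53b- minus Baf53a-expressing. Every member probe was printed as 1 spot. The array software's own error model gave each of the 8 differences an error of 0.204 on the log2 scale. Probes that were printed 10 times gave the noise between spots. With all probes split by brightness into 5 classes of equal size, the SD expected of a difference from spot noise alone ran from 0.0590 in the brightest class to 0.274 in the dimmest. Neither figure holds the noise of culture, labelling or hybridisation.

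**Figure D1:**
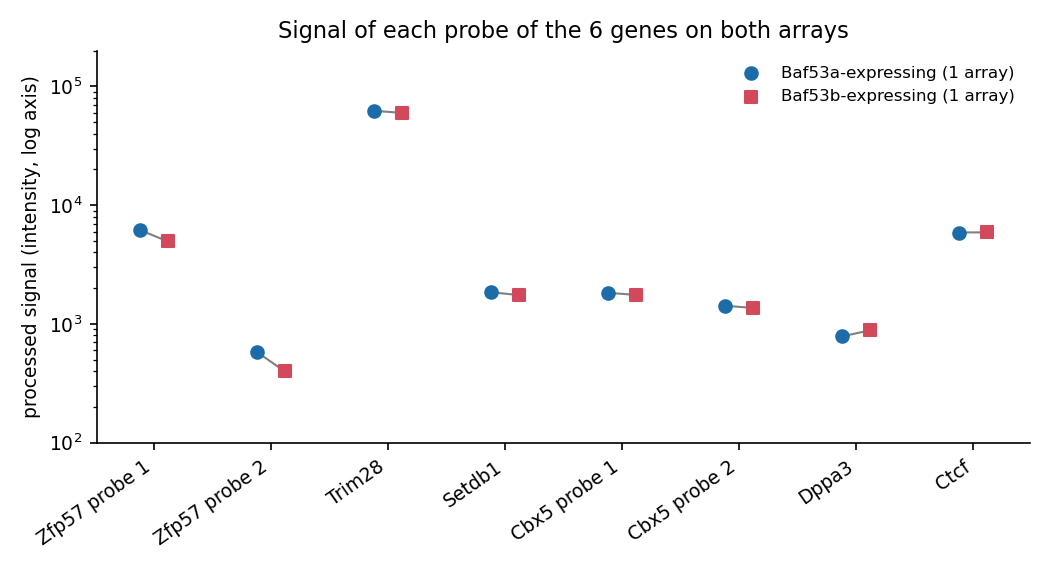
Processed signal (log axis) of each of the 8 probes on the array of Baf53a-expressing cells (circles) and of Baf53b-expressing cells (squares), with a line joining the values of a probe. Both Zfp57 probes step down and the Dppa3 probe steps up, while the lines of Trim28, Setdb1, Cbx5 and Ctcf are close to flat; signals of different probes are not comparable.

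Zfp57 was the lowest of the 6 genes in Baf53b-expressing cells. Its bright probe gave a signal of 6204 in Baf53a- and 4963 in Baf53b-expressing cells. Its dim probe gave 583 and 399. Both probes pointed the same way. After scaling, the bright probe differed by -0.28 on the log2 scale (1.21-fold lower) and the dim probe by -0.51 (1.42-fold lower), with a mean of -0.39 (1.31-fold lower). In units of the software's error, these were -1.37 and -2.48, and in units of spot noise at their brightness -4.75 and -6.34. Differences of all probes spread wider than spot noise. Their SD was 0.108 in the brightness class of the bright probe and 0.154 in that of the dim one. The medians of these 2 classes were -0.0632 and 0.0191. Fewer cells that express Zfp57 and less Zfp57 RNA per cell cannot be told apart in bulk RNA.

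Only part of the probes of like brightness reached such values. In the brightest class, which holds the bright Zfp57 probe, 54 of 5850 probes were as low or lower (0.923%). In the middle class, which holds the dim one, 19 of 5849 were (0.325%). Of 4210 genes with at least 2 measured probes, 17 (0.404%) had every probe at or below the -0.28 of the bright Zfp57 probe. At or below the bright probe's own value under each setting, the count was 47 under quantile normalization, 42 under cyclic loess, 5 after normexp, 35 with no filter on dim probes, 31 with the weaker detection flag and 9 with the stricter filter. Since Zfp57 was chosen for this pattern, these shares say where it lies and support nothing. The 2 Zfp57 probes lay 0.23 apart on the log2 scale, and 19.6% of the 3519 genes with exactly 2 measured probes had a gap at least as wide. The spots around both probes are given as a description only. Signals had been spatially detrended, and neighbours cannot show a fault in a single spot. Within 5 rows and columns of the array, the median difference was 0.0019 around the bright probe and 0.0490 around the dim one.

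**Figure D2:**
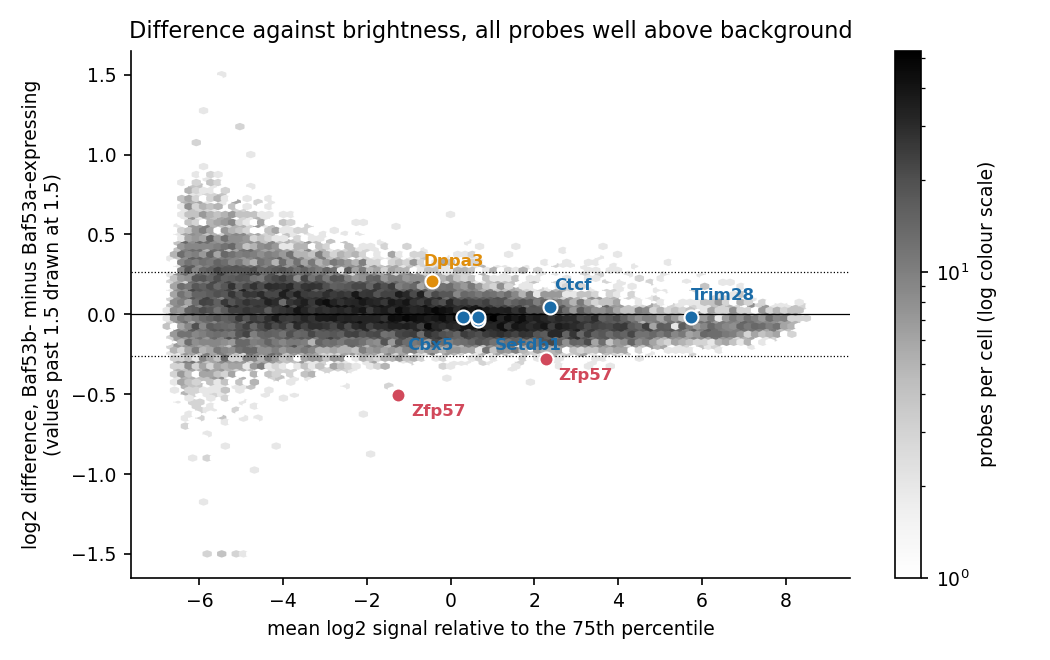
Log2 difference (Baf53b- minus Baf53a-expressing) against the mean log2 signal for all 29247 probes well above background on both arrays (grey, darker where probes are denser), with the 8 member probes in colour and dotted lines at 1.2-fold. The 2 Zfp57 probes lie at the lower edge of the cloud at their brightness, Dppa3 near its upper edge and the other probes near the centre.

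The TRIM28 arm of the pathway differed little between the samples. Trim28, the corepressor that ZFP57 binds, gave a signal of 62407 in Baf53a- and 60022 in Baf53b-expressing cells, a scaled difference of -0.0143. Setdb1, the histone H3 lysine methyltransferase of the complex, gave 1852 and 1751, a difference of -0.0388. The 2 probes of Cbx5, which encodes HP1 alpha, gave 1829 against 1758 and 1423 against 1365, Baf53a-expressing cells first. Their differences were -0.0153 and -0.0185. All 4 probes were within 1 spot SD of 0, and all stood below 0 as scaled here. The sign depended on the scaling for Trim28 and Cbx5 but not for Setdb1, which stayed between -0.0899 and -0.0125. Trim28 was at 0.0464 under quantile normalization and 0.0532 under cyclic loess, and the mean of Cbx5 was at 0.0060 under cyclic loess and 0.0155 after normexp background correction.

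Dppa3 was the highest of the 6 genes. Its probe gave 787 in Baf53a- and 885 in Baf53b-expressing cells, a scaled difference of 0.21 (1.16-fold higher), which was 1.03 of the software's errors and 3.17 spot SDs. In its class of brightness, 95.6% of the probes were at or below it. Dppa3 stayed between 0.16 and 0.24 in the 10 ways of processing that were run on its probe. Dppa3 marks naive ES cells and also primordial germ cells. The 8 germ cell markers listed were split, 3 lower and 5 higher, where 50.9% of all genes were lower. Of them, 1 was at least 1.2-fold higher, where 8.47% of all genes were. Their median was 0.0395 and their summed level 18.7 and 17.9 times the 75th percentile of the array. Ifitm3 alone gave 9.56 and 8.61 of that level, and the others together gave 9.12 and 9.27. Ctcf gave 5893 and 5913, a difference of 0.0468, which turned to -0.0043 with centring on the median.

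Taken by count, 6 of the 8 member probes were below 0 and 2 above, with a median of -0.0169, beside 50.3% below 0 and a median of -0.0013 over all 29247 probes. The 2 Zfp57 probes were the 2 at least 1.2-fold lower, where 3.94% of all probes were. None of the 8 was at least 1.2-fold higher, where 10.5% of all probes were, and none was 2-fold apart in either direction (0.116% of all probes were 2-fold lower and 0.137% higher). The background moved with the scaling, to 6.13% lower and 7.27% higher under quantile normalization, 5.83% and 7.81% under cyclic loess, and 6.56% and 7.54% with centring on the median. The shares were 0.810% and 4.004% after normexp, 2.18% and 5.66% with the stricter filter on dim probes, 6.73% and 15.05% with the weaker detection flag, and 7.18% and 14.996% with no filter. The 1.2-fold step was set with the Zfp57 values known, so its count adds nothing to them.

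**Figure D3:**
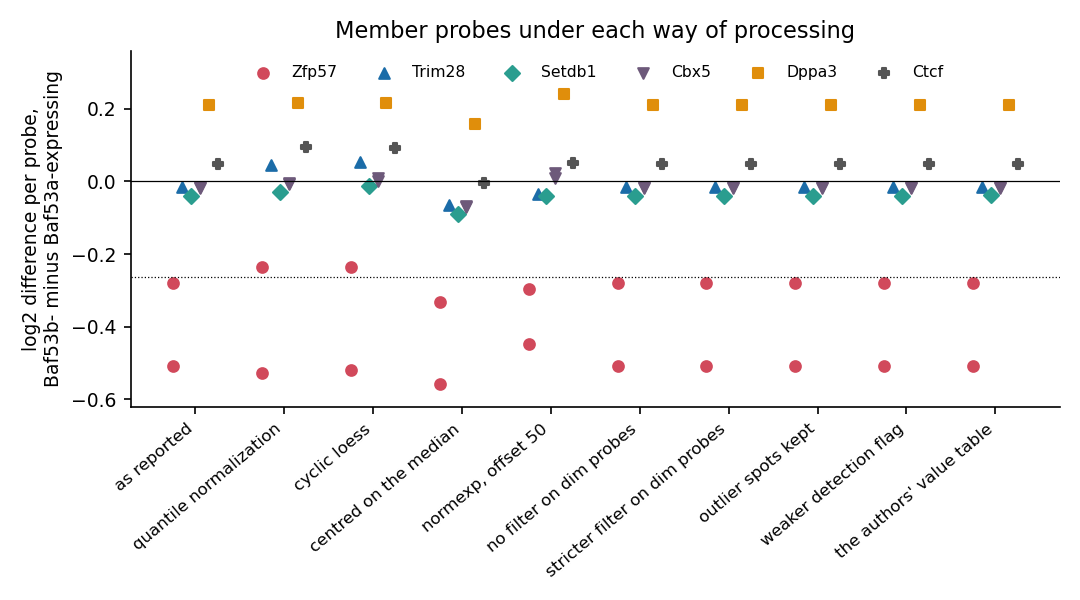
Log2 difference of each of the 8 member probes (y axis) under each way of processing (x axis), with a dotted line at 1.2-fold lower. Both Zfp57 probes stay below 0 and Dppa3 above it throughout; under quantile normalization and cyclic loess the bright Zfp57 probe moves from -0.28 to -0.24, inside the 1.2-fold line.

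Other proteins that work with TRIM28 were next examined. All 16 listed genes were measured, 10 lower and 6 higher in Baf53b-expressing cells, where 50.9% of all genes were lower. None reached 1.2-fold in either direction. Over the 16604 genes measured, 3.41% were 1.2-fold lower and 8.47% higher, and 0.0903% were 2-fold lower and 0.102% higher. Of the 16, 11 lie in the brightest class, in which the median of all probes was -0.06. The median of the 16 was -0.0094 and turned to 0.0161 under quantile normalization and 0.0193 under cyclic loess. At the ends of the list stood Chaf1b (-0.11), a subunit of the histone chaperone CAF-1, and Morc3 (-0.09), an ATPase that acts at silenced repeats, against Trim33 (0.12), a relative of Trim28, and Cbx1 (0.10), another HP1 gene. Cbx3, a further HP1 gene, was at 0.05, from probes at 0.03 and 0.08. Atf7ip, the cofactor that stabilises SETDB1, was at -0.05.

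Of 20 other genes linked to imprints or DNA methylation, Tet1 and Tet2 among them, 19 were measured, 8 lower and 11 higher. None was past 1.2-fold, and the median of 0.0019 became -0.0492 with centring on the median. Zfp445, a zinc finger gene that shares the imprint guarding role of Zfp57, gave signals of 896 and 907 and a difference of 0.06. Dnmt1, the maintenance DNA methyltransferase, was at -0.09, and Uhrf1, which guides it to replicated DNA, at -0.03 with probes at -0.09 and 0.03. The lowest were Ctcfl (-0.20), the germ line paralogue of Ctcf, and Kdm1b (-0.12), a histone demethylase needed for maternal imprints. The highest were Arid4b (0.12) and Arid4a (0.11), both linked to the imprint of the Prader-Willi region. The Nlrp2 probe was not well above background on either array. Genes of cohesin, the ring complex that CTCF halts on chromatin, were all measured. They gave 4 lower and 6 higher of 10, from -0.11 for Smc1a to 0.09 for Nipbl, and the median of 0.0103 became -0.0408 with centring on the median.

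Zfp57 is one gene of a large zinc finger family, and 372 other genes whose symbol begins with Zfp had a probe. Of the 355 measured, 147 were lower and 208 higher, with a median of 0.0208 that turned to -0.0303 under centring on the median and to -0.0011 under quantile normalization. Lower by any amount were 41.4% of the 355, beside 50.9% of all genes. At least 1.2-fold lower were 4 of them (1.13%), and 14 (3.94%) were at least 1.2-fold higher. Of all genes, 3.41% and 8.47% were. Of all 16604 genes measured, 196 (1.18%) were as low as Zfp57, which was chosen for its low values. None of the 355 was. The lowest were Zfp449 (-0.35) and Zfp827 (-0.34, from probes at -0.56 and -0.11), and the highest Zfp983 (0.43) and Zfp28 (0.41).

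Genes under the same control as Zfp57 in ES cells, downstream of STAT3 or Oct3/4, were compared together with STAT3 and Oct3/4 themselves. Of 14 measured, 11 were lower and 3 higher, with a median of -0.0460 and none past 1.2-fold, where 50.9% of all genes were lower. Of the 14, 12 lie in the brightest class, in which the median of all probes was -0.06. The lowest were the ETS factor Etv4 (-0.20, probes at -0.23 and -0.17) and the homeobox gene Gbx2 (-0.17), and the highest Pim1 (0.11), a kinase gene and STAT3 target, and Dax1 (Nr0b1, 0.07). Stat3 was at -0.05 with probes at -0.14 and 0.04, Oct3/4 (Pou5f1) at -0.13, Esrrb at -0.15, Zfp296 at -0.10 and Eed at -0.0038. The median stayed below 0 under all alternatives, between -0.10 and -0.0114, but the number of lower genes went down to 7 under quantile normalization and cyclic loess.

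The identity of the cells was checked with marker lists. All 12 markers of undifferentiated ES cells were well above background on both arrays, 9 of them lower in Baf53b-expressing cells (7 under quantile normalization and cyclic loess, 10 with centring on the median), with a median of -0.07, where 50.9% of all genes were lower. Of the 12, 11 lie in the brightest class, with its median of -0.06 over all probes. Summed over the probes of the 12, the level was 382 and 368 times the 75th percentile of the array. Dppa5a alone gave 140 and 142 of it, at a difference of 0.0187. The 9 primitive endoderm markers were all measured and all higher, from 0.08 (Sox7) to 0.40 (Dab2), and 5 were at least 1.2-fold higher, where 8.47% of all genes were. Dim probes ran higher as a whole, with a median of 0.0976 and 28.1% at least 1.2-fold higher in the dimmest class, which holds none of the 9. The second dimmest class holds 2, and there the median of all probes was 0.0544 and 14.1% were at least 1.2-fold higher. The 4 in the middle class compare with a median of 0.0191 over all probes of that class. The second brightest class holds 2 and the brightest 1, with medians of -0.0193 and -0.0632 over all probes. The summed level of the 9 was 24.5 and 29.9, of which the laminin gene Lama1 alone gave 18.95 and 23.34. Of 7 trophoblast markers, Elf5 was not well above background on either array. The other 6 were all higher, where 50.9% of all genes were lower, and 2 were at least 1.2-fold higher, beside the same 8.47%. Of these 6, 2 lie in the second dimmest class, with its median of 0.0544 over all probes, and 2 in the middle class. The second brightest class holds 1 and the brightest 1, with their medians of -0.0193 and -0.0632 over all probes. The summed level of the 6 was 6.55 and 8.23. Of 7 fibroblast markers, Postn was not well above background. Beside the same 50.9% of all genes lower, 1 was lower and 5 were higher, 1 of them at least 1.2-fold. The summed level of the 6 measured was 16.94 and 16.95, of which Fn1 alone gave 15.69 and 15.73. Their median was 0.126, and 1 of them lies in the dimmest class and 2 in the second dimmest. These marker levels moved beside the lower Zfp57 signal, and their part in it was not tested.

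The imprinted genes themselves were listed where a control region is known to be bound by ZFP57 or CTCF. Of 40 genes listed, 38 had a named probe and 36 were measured, 15 lower and 21 higher, with a median of 0.0358. That median turned to -0.0153 with centring on the median, and to -0.0154 with the brightest probe per gene. None was 1.2-fold lower and 2 were 1.2-fold higher, near the background shares given above. The lowest were Cdkn1c (-0.24), a cell cycle inhibitor gene with signals of 34047 and 28059, and Mest (-0.22, probes at -0.26 and -0.19). The highest were Magel2 (0.41) of the Prader-Willi region, with signals of 578 and 745, and Peg10 (0.31, probes at 0.25 and 0.37), a retrotransposon-derived gene needed in the placenta. Zim1 was well above background in Baf53b-expressing cells only, on 1 of its 2 probes. That probe was 1.72-fold higher there than its own dim value in Baf53a-expressing cells, at scaled log2 signals of -6.22 against -7.00. Both values lie among the dimmest signals, where spot noise was largest. The other probe was not well above background on either array. The hexamer TGCCGC lay in a promoter window of 12 of the 33 imprinted genes that had one (36.4%), beside 13.1% of all 27025 genes. A gene counted when any of its windows held the hexamer, which itself contains a CpG. Neither CpG content nor the number of windows per gene was matched, and the imprinted genes were listed for binding by ZFP57 or CTCF. The 2 shares are therefore a description only. These are letters in a window, and their methylation was not measured.

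**Figure D4:**
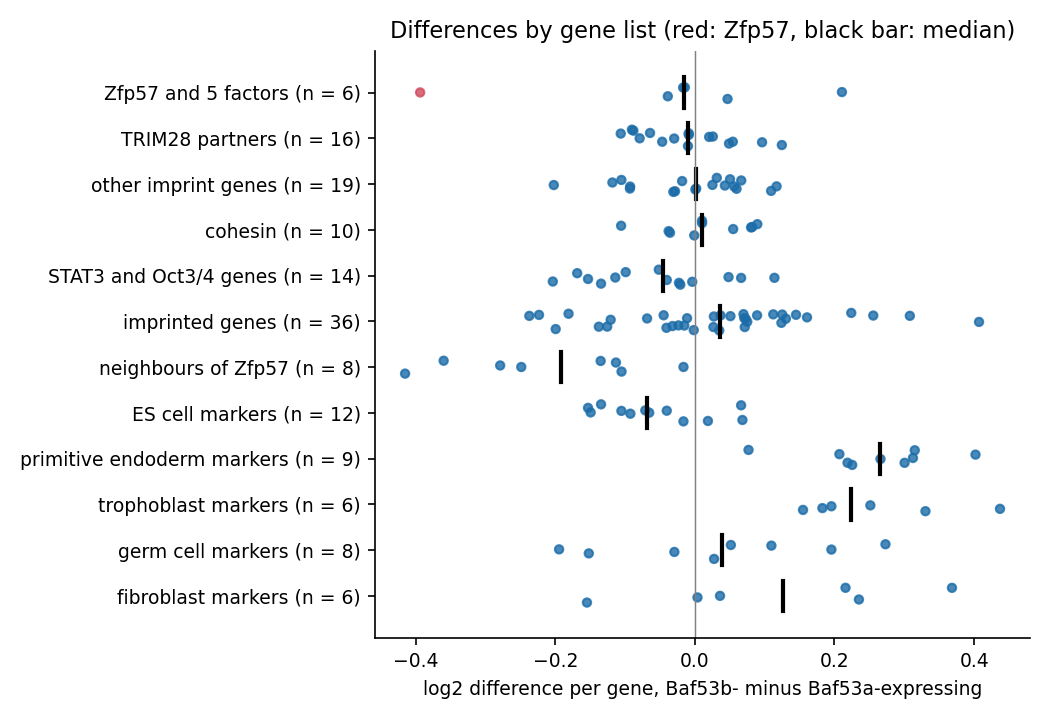
Log2 difference per gene (x axis, Baf53b- minus Baf53a-expressing) for the 6 genes, the related gene lists and the marker lists (y axis, with the number of genes measured); points are genes, spread vertically for legibility, and black bars are medians. Zfp57 (red) lies at -0.39, apart from its partners, and the genes next to it on the chromosome lie to the left of 0.

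The genes next to Zfp57 on its chromosome were also lower. Zfp57 lies on chromosome 17 at the edge of the major histocompatibility complex. The 5 named genes on each side of it, in the order of the RefSeq gene table, were examined, and 8 of the 10 were measured. All 8 were lower in Baf53b-expressing cells, with a median of -0.19, where 50.9% of all genes measured were lower. Over 12753 genes with at least 8 measured genes among the 5 on either side, 142 (1.11%) had all of those neighbours lower, and 26 (0.204%) had neighbours with a median as low. Windows of nearby genes overlap and are not independent. The other 5 genes of the group gave no such uniform set at that size, with 5 of 9 neighbours lower for Setdb1 and Cbx5, 6 of 10 for Dppa3 and 7 of 10 for Ctcf, though all 6 measured neighbours of Trim28 were lower, by a median of -0.0497.

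The neighbours differ in function and brightness. Before Zfp57 in the order stood H2-M5, a class I-like gene of the complex, at -0.36 (scaled log2 signals -4.60 and -4.96), then 2410137M14Rik at -0.28 (783 and 627). Further out, Znrd1as stood at -0.11 and Znrd1, which encodes an RNA polymerase I subunit, at -0.13. Ppp1r11, a protein phosphatase inhibitor gene, stood at -0.25, with signals of 12990 and 10620. At that brightness 1.76% of all probes were as low, whereas H2-M5 lies in the dimmest class, where 5.88% were. Beyond Zfp57 stood Mog, a myelin gene, at -0.0163, Gabbr1, a GABA receptor subunit gene, at -0.11 over 3 probes, and Olfr91, an olfactory receptor gene, at -0.42 (scaled log2 signals -5.12 and -5.54). The probes of Olfr90 and Olfr92 were not well above background on either array. Counting outward over measured genes, the run below 0 held 11 genes with Zfp57 among them, ended by Trim31 (0.07) on one side and Ubd (0.23) on the other. Within the run, 1700031A10Rik (-0.0034), Rnf39 (-0.0210) and Mog stood close to 0. The length of the run was not recounted under the alternatives. Over 10 measured genes on each side, a span chosen after these values were seen, 16 of 20 were below 0, with a median of -0.09. On chromosome 17 as a whole, 516 of 860 genes were below 0, with a median of -0.0345. Why the neighbours were lower was not tested. The 8 neighbours were below 0 under each alternative that measured them, and their median lay between -0.24 (centring on the median) and -0.11 (normexp). With no filter or the weaker detection flag all 10 were measured, and 9 of them were below 0. The stricter filter kept 6 of the 8, all below 0, with a median of -0.12.

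**Figure D5:**
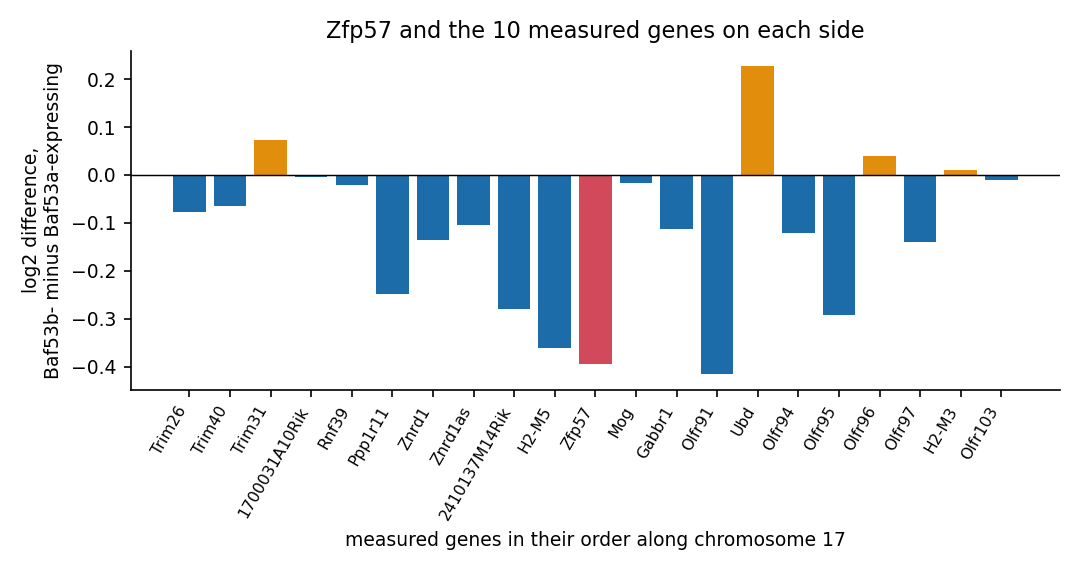
Log2 difference (y axis, Baf53b- minus Baf53a-expressing, 1 array each) of Zfp57 (red) and the 10 measured genes on each side in their order along chromosome 17 (x axis); blue bars are genes below 0 and orange bars genes above 0. The bars from 1700031A10Rik to Olfr91 all point down, with Trim31 and Ubd at either end pointing up. Those of 1700031A10Rik, Rnf39 and Mog are close to 0.

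The genes most like Zfp57 were sought among 922 other genes with at least 2 measured probes and a mean log2 signal within 1 of that of Zfp57. With 1 array per condition, likeness is the distance between single differences. Among the nearest were Lrrc2 (-0.30), Cd37 (-0.28), Tnfsf12 (-0.28) and Cnih2 (-0.27), and 1 of the 922 was as low as the -0.39 of Zfp57.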

How the data were processed

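RNA of 1 Baf53a- and 1 Baf53b-expressing sample was hybridised by the authors to 1-colour Whole Mouse Genome arrays. The authors deposited the spot intensity from Agilent Feature Extraction 11.0.1.1, background subtracted and spatially detrended but not normalized between arrays, on a design annotated on mm9. The deposited value table holds a ratio per probe. For each of 30479 probes compared on each array it equalled the spot signal divided by 1 number per array, 1160 and 1126, within 0.1%, so no scale or direction stayed unknown.

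Control spots and spots marked as outliers were left out, spots of the same probe were averaged as log2 intensities, and each array's 75th percentile over 39411 probes was subtracted. A probe was measured when at least 50% of its spots were flagged well above background on both arrays (29247 probes). A gene's value is the mean over its measured probes. The summed level of a list runs over all measured probes of its genes, so a gene with several probes counts several times. RefSeq accessions named 27404 probes through a gene table of GRCm38.p6, used for names and gene order only. Spot noise came from 324 probes printed 10 times. No spot was saturated, and signals well above background began at 8.45 and 9.75. The number of arrays limits the precision.

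The genes, lists, thresholds and tests were chosen with earlier results of these data known. The genes named are the 6 themselves, the 2 lowest and 2 highest measured genes of each list, those past 1.2-fold, any gene of the lists of TRIM28 partners, imprint genes, cohesin and STAT3 or Oct3/4 genes, and the 5 nearest to Zfp57, of which 1 is not reported here. Elsewhere, marker genes, neighbours and Zim1 were named after their values were seen. The windows of neighbouring genes over the genome, the span of 10 genes and the promoter motifs were also chosen then. The alternatives were quantile normalization, cyclic loess, centring on the median, normexp with an offset of 50 on the median signal, leaving dim probes in, removing more of them, keeping the outlier spots, a weaker detection flag, the value table and the brightest probe per gene. Python 3.11.15 (numpy 2.4.6, pandas 2.3.3) and R 4.3.3 (limma 3.58.1) were used, and the steps were tested on simulated data.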

Additional observations from a re-analysis of the deposited data

How the results depend on the processing

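Of 238 values recomputed for 25 results under 10 alternatives, 230 moved by less than the spot noise of a difference, or for counts by at most 1.5 times. Many of these could hardly move. Every member probe passed each filter and the weaker detection flag, so those settings left the member values as they were. Keeping the outlier spots and using the value table rest on nearly the same signals. The count of 230 is therefore no measure of robustness. Both Zfp57 probes stayed below 0 under every alternative, from -0.56 to -0.45 for the dim probe and from -0.33 to -0.24 for the bright one. The bright probe was less than 1.2-fold lower under quantile normalization and cyclic loess, so that 1 member probe was at least 1.2-fold lower in each, against 2. With the brightest probe per gene, Zfp57 was at -0.28, by construction the value of that probe. Trim28, which lies at the bright end, where the median difference of all probes was -0.06, moved to 0.0464 under quantile normalization and 0.0532 under cyclic loess. Under cyclic loess 3 member probes were below 0 and after normexp 4, against 6. The cause of these scaling shifts was not tested. No paired analysis was possible because each of the 2 conditions had a single array, and no array could be left out.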
